A study of Mus musculus with 6 samples.

Results

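The genes described here drive cells through mitosis or hold them at the spindle assembly checkpoint. The 46 genes were listed by name, for their function, and 44 of them were measured among the 22180 genes of the array. Ccnb1 (cyclin B1), which the gene table listed under no probe set, and Ncapg (a condensin subunit), whose probe set also named another gene, are not analysed here. Transcripts were profiled in mouse cumulus-oocyte complexes, in which cumulus cells, the somatic cells around the egg, enclose an immature oocyte. A group of 3 samples cultured with 5 µM Torin1, which blocks the ATP site of the kinase MTOR, was set against 3 samples cultured with the vehicle DMSO. All complexes came from wildtype females that had received 5 IU of eCG, a gonadotropin that drives follicle growth, 46 h before collection. The labels state the age as 21 days in the growth protocol and as 23 days among the characteristics, and the culture as 14 h in the sample source and as 16 h in the growth protocol. Both groups were cultured in medium with 5 µM milrinone, a PDE3 inhibitor that keeps oocytes in meiotic arrest, and 100 complexes were cultured per group.

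Entry into mitosis depends on the kinase CDK1, which is switched on by cyclins A and B and by CDC25 phosphatases. Kinetochores then attach chromosomes to the spindle, and the checkpoint holds back the anaphase-promoting complex until every chromosome is attached. The same machinery runs the meiotic divisions, and fully grown oocytes arrested in prophase store many of these messengers for later translation. Cumulus cells are somatic cells that can divide. RNA from whole complexes does not show which cell a transcript came from, and fewer cells of a type cannot be told apart from less RNA per cell.

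Levels are log2(intensity + 1) of the deposited array values, and a change is the Torin1 mean minus the DMSO mean on that scale, with its standard error (SE) from limma. A gene was called higher or lower when its Benjamini-Hochberg adjusted p, over all 22180 genes, was below 0.05. The labels do not say whether the samples came from separate mice or days, so p-values measure a spread that may be technical. Torin1 sample 3 stood apart: the second principal component put it at 30.4, Torin1 samples 1 and 2 at -14.1 and -19.8, and DMSO samples at -2.85 to 4.42. Its description also carries the short name of Torin1 sample 2. Where leaving it out moved a named gene's value by over 1.5 times or changed its call, that value is given too, except for differences that stayed within 0.1 of 0. For Foxm1 and Hsd3b1 the values in each array are given in its place. Both labelled cell types were represented: 27 of 28 measured oocyte markers and 16 of 18 cumulus and granulosa markers had a mean level above that of the median gene.

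Most mitosis and checkpoint transcripts changed little in RNA from whole complexes. Oocytes store many of these messengers, so a change in cumulus cells could be masked, which was not tested. Of 44 measured members 4 were called lower with Torin1 (Pimreg, Aurkb, Ccnb2 and Spc25), 1 was called higher (Plk4) and 39 were not called. The 5 calls make up 11.4% of members, near the 12.1% of all genes that were called. The share called lower was 9.09% of members, against 6.94% of all genes, and the share called higher was 2.27%, against 5.13%. The median change of the members was 0.05, and that of all genes was 0.01. None of the 44 members changed by 1 or more on the log2 scale, a size reached by 3.98% of all genes.

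**Figure D1:**
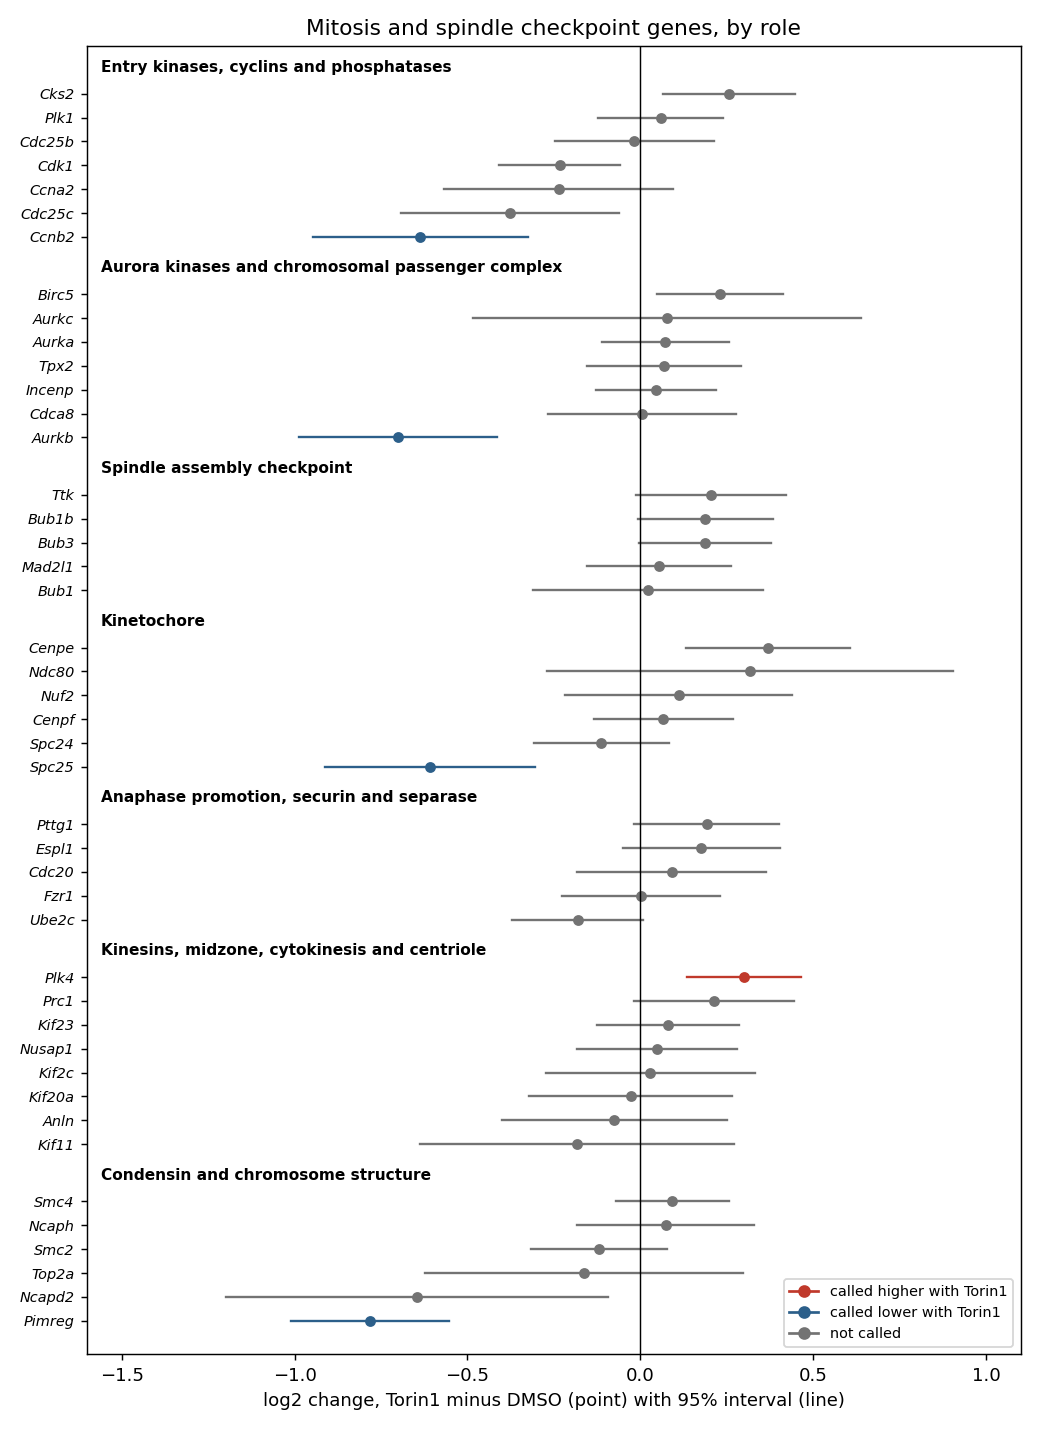
Log2 change, Torin1 minus DMSO, of the 44 measured members grouped by role (points), with 95% intervals from limma (lines); colour marks the call. The 4 genes called lower lie between -0.78 and -0.61, Plk4 lies at 0.30, and most other points lie near 0.

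The intervals say how large a change in whole complexes these 6 arrays leave room for, and do not bound a change in cumulus cells alone. The 95% interval lay inside -1 to 1 for 42 of 44 members (95.5%), and for 90.9% of all genes. Ncapd2 and Pimreg were the 2 members whose interval reached past -1. It lay inside -0.5 to 0.5 for 32 members (72.7%, against 67.8% of all genes). The values of the groups did not overlap, with Torin1 above, in 10 members (22.7%), where 14.3% of all genes showed this. They did not overlap, with Torin1 below, in 8 members (18.2%), where the share of all genes was also 14.3%.

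Pimreg, which encodes a mitotic phosphoprotein degraded as cells leave mitosis, was the member with the largest fall. Its level was 4.51, 4.47 and 4.25 in Torin1 samples 1, 2 and 3, against 5.13, 5.29 and 5.15 in DMSO samples 1, 2 and 3. All Torin1 values lay below all DMSO values. It fell by 0.78 ± 0.10 (SE; adjusted p = 0.00316) and passed the threshold in all 6 leave-outs of 1 array (adjusted p from 0.00301 to 0.0167). The gene's span overlaps that of Aipl1 in the annotation, so assigning this signal to Pimreg alone is uncertain. Spans of other members overlap another gene too, among them Ccna2 (Exosc9), Aurka (Cstf1), Cdc20 (Elovl1), Kif20a (Brd8 and Cdc23), Prc1 (Rccd1) and Nusap1 (Oip5). Pimreg was dim, with a Torin1 mean near the median gene's level of 4.17, and on this scale the fold change of a dim gene is understated.

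Aurkb encodes the kinase of the chromosomal passenger complex, which releases faulty attachments between kinetochores and spindle. Its level was 5.89, 6.29 and 6.08 in Torin1 samples and 6.80, 6.66 and 6.90 in DMSO samples. The groups did not overlap, and DMSO was 1.63-fold higher than Torin1. The change was -0.70 ± 0.12 (SE; adjusted p = 0.0114). Without DMSO sample 3 the gene was not called (adjusted p = 0.0521), though the change was still -0.64.

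Ccnb2, cyclin B2, is an activating partner of CDK1. It stood at 7.36, 7.52 and 7.07 in Torin1 samples, against 7.82, 7.95 and 8.09 in DMSO samples. Torin1 sample 3 was the lowest of the 6, and the groups did not overlap. The change was -0.64 ± 0.13 (SE; adjusted p = 0.0227), and it was -0.51 without Torin1 sample 3, where the gene was still called (adjusted p = 0.0243). The call was lost without Torin1 sample 1, DMSO sample 2 or DMSO sample 3 (adjusted p = 0.0621, 0.0734 and 0.0882).

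Spc25 is a subunit of the NDC80 complex, the part of the kinetochore that grips microtubules. Its level was 5.59, 5.66 and 5.40 in Torin1 samples, against 6.14, 5.95 and 6.38 in DMSO samples. The groups did not overlap, and the change was -0.61 ± 0.13 (SE; adjusted p = 0.0241). The gene was not called without Torin1 sample 1, DMSO sample 1 or DMSO sample 3 (adjusted p = 0.0651, 0.0751 and 0.0698).

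Plk4, the kinase that starts centriole duplication, was the member called higher. It was at 7.49, 7.56 and 7.52 in Torin1 samples and at 7.25, 7.17 and 7.26 in DMSO samples. The rise was small but the replicates were close, at 0.30 ± 0.07 (SE; adjusted p = 0.0345), or 1.23-fold. The call was lost in each of the 6 leave-outs (adjusted p from 0.0551 without Torin1 sample 3 to 0.107 without DMSO sample 2), while the change stayed between 0.27 and 0.32.

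**Figure D2:**
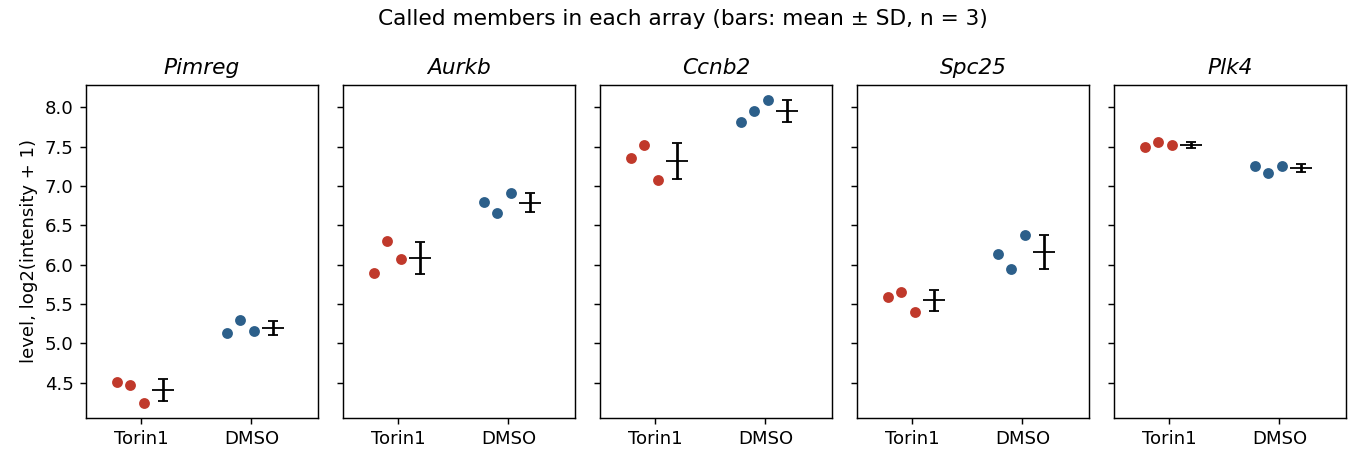
Level, log2(intensity + 1), of the 5 called members in each Torin1 array (left in each panel) and each DMSO array (right), with the mean ± SD of 3 arrays beside the points. In Pimreg, Aurkb, Ccnb2 and Spc25 every Torin1 point lies below every DMSO point, and in Plk4 every Torin1 point lies above.

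Promoters of the called members Ccnb2, Spc25 and Plk4 are printed because mitotic genes are known to share promoter elements: the cell cycle homology region, bound through LIN54 by the DREAM and MMB complexes, and the CCAAT box, bound by NF-Y. RefSeq's promoter windows (GRCm38.p6), which run from 250 bases before to 50 after an annotated start, held 37 of the 46 members. Only the first listed window of each gene was used, so any other start of a gene was not searched. Promoters of the called members Pimreg and Aurkb, and of Ccna2, Tpx2, Spc24, Smc4, Incenp, Kif20a and Cdc25c, are not analysed here. Capitals mark TTTGAA (the cell cycle homology region), CCAAT (the CCAAT box) and GCGGGAA (an E2F core), searched on both strands. Only these exact letters were searched, so a window without them can still hold a variant of the element. The windows are those of Ccnb2 at chr9:70421505-70421804 and of Spc25 at chr2:69206164-69206463, both on the minus strand, and of Plk4 at chr3:40799701-40800000 on the plus strand.
Ccnb2: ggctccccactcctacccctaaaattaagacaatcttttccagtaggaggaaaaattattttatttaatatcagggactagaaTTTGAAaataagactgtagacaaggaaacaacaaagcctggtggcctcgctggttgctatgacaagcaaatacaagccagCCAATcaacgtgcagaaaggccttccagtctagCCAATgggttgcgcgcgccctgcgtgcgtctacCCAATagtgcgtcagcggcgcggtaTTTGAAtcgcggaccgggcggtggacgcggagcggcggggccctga
Spc25: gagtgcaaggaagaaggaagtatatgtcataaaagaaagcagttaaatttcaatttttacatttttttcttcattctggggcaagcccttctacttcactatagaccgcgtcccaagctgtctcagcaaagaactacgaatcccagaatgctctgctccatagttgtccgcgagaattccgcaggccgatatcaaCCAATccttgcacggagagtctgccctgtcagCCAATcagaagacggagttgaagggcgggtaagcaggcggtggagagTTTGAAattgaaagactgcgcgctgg
Plk4: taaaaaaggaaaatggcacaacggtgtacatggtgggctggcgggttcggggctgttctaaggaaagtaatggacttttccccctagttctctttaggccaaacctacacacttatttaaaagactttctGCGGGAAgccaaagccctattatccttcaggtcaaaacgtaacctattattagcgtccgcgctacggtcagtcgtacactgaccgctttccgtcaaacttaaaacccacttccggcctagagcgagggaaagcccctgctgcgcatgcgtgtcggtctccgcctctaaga

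The Ccnb2 window holds 3 CCAAT boxes spaced 33 bases apart, and TTTGAA at positions -167 and 5, counted from the annotated start. The Spc25 window holds 2 CCAAT boxes 32 bases apart and a TTTGAA at position 25. The Plk4 window holds neither TTTGAA nor CCAAT and has 1 GCGGGAA, at position -120.

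Of the 35 measured members with a window, 22 held TTTGAA (62.9%), against 15.8% of the 16990 measured genes with one. In 20 members (57.1%) the match began within 50 bases of the start, against 4.03% of genes. CCAAT was found in 25 members (71.4%) and in 38.5% of genes, and both motifs together in 19 members (54.3%) and in 6.42% of genes. GCGGGAA was found in 1 member (2.86%), Plk4, and in 6.09% of genes. Of the 19 members with both motifs 2 were called lower (Ccnb2 and Spc25), 0 were called higher and 17 were not called. Of all 44 measured members 9.09% were called lower, and of all genes 6.94%. Calls among all genes with both motifs were not counted. A match of letters is not evidence of binding, and these counts describe sequence that the arrays did not measure.

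Among the entry kinases, cyclins and phosphatases 1 of 7 measured members was called lower (Ccnb2), 0 higher and 6 not called. The share called was 14.3%, against 12.1% of all genes, and the median change was -0.23. Cdk1 itself was at 7.42, 7.48 and 7.40 in Torin1 samples, against 7.74, 7.67 and 7.59 in DMSO samples. The groups did not overlap, but the change of -0.23 ± 0.07 (SE) was not called (adjusted p = 0.0985). Ccna2, cyclin A2, differed by -0.24 ± 0.14 (adjusted p = 0.392) with overlapping groups, and by -0.11 without Torin1 sample 3 (adjusted p = 0.697). Cdc25c, a phosphatase that activates CDK1, was dimmer than the median gene and differed by -0.38 ± 0.13 (adjusted p = 0.134).

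Plk1, the polo-like kinase that promotes entry and spindle assembly, was nearly level between groups, at 9.08 ± 0.08 with Torin1 and 9.02 ± 0.05 with DMSO (SD, n = 3 each). Its 95% interval ran from -0.12 to 0.24. Cdc25b, another activating phosphatase, also had close means, with an interval of -0.25 to 0.21. Cks2, a small subunit that binds CDK1, had no overlap and a difference of 0.26 ± 0.08 (SE; adjusted p = 0.0939). Those values are of the brightest of its 4 probe sets. The other 3 held the same values as each other, with overlap between Torin1 (6.27, 6.62 and 6.21) and DMSO (6.29, 5.72 and 6.32) and a difference of 0.26. The mean of all 4 had an adjusted p of 0.384.

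In the Aurora and chromosomal passenger group 1 of 7 members was called lower (Aurkb), 0 higher and 6 not called. This is 14.3% called, against 12.1% of all genes. The other members of the complex were not called. Incenp, the scaffold, differed by 0.04 ± 0.07, and Cdca8 (borealin) by 0.01 ± 0.11. Birc5 (survivin) was higher in every Torin1 sample, at 7.05, 7.19 and 7.10, than in the DMSO samples, at 6.82, 6.95 and 6.87. Its difference of 0.23 ± 0.08 (SE) was not called (adjusted p = 0.116).

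Aurkc, the paralogue that serves the germ line, was at 5.09, 5.43 and 6.12 in Torin1 samples, against 5.41, 5.47 and 5.52 in DMSO samples. Torin1 sample 3 alone lay above the DMSO range and sample 1 below it. The difference was 0.08 ± 0.24 (SE), and -0.21 without Torin1 sample 3, and neither was called (adjusted p = 0.920 and 0.347). Those values are of the brighter of its 2 probe sets. The other set differed by 0.19. In that set Torin1 samples 2 and 3 lay above all DMSO samples, and sample 1 lay within their range. The mean of both sets differed by 0.14 and was not called (adjusted p = 0.728). Aurka, the spindle pole kinase, and its activator Tpx2 both differed by 0.07, with intervals of -0.11 to 0.26 and -0.16 to 0.29.

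No spindle checkpoint gene was called in limma among 5 members, and 0 had an unadjusted p below 0.05 (12.1% and 24.0% of all genes). A change above 0 was found in all 5 (median 0.19), in 11719 of 22180 genes (median 0.01) and in all 28 oocyte markers (median 0.20). Bub3 was at 8.26, 8.29 and 8.20 in Torin1 samples, against 8.11, 7.94 and 8.13 in DMSO samples. Bub1b, which encodes BUBR1 of the same checkpoint complex, was at 8.88, 9.07 and 8.86 with Torin1, against 8.74, 8.74 and 8.77 with DMSO. The groups did not overlap in either gene, and both differed by 0.19 ± 0.08 (SE; adjusted p = 0.216 and 0.224).

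Ttk, the kinase MPS1 that starts checkpoint signalling, differed by 0.21 ± 0.09 (adjusted p = 0.235), with overlap. Mad2l1, which encodes the CDC20-binding checkpoint protein MAD2, and Bub1, a kinetochore kinase, differed by 0.05 ± 0.09 and 0.02 ± 0.14. The upper bounds of the 95% intervals of these 5 genes ran from 0.26 for Mad2l1 to 0.42 for Ttk.

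Of 6 kinetochore genes 1 was called lower (Spc25), 0 higher and 5 not called (16.7% called, against 12.1% of all genes). The other subunits of the NDC80 complex were not called. Spc24, the direct partner of Spc25, differed by -0.11 ± 0.08, Nuf2 by 0.11 ± 0.14 and Ndc80 by 0.32 ± 0.25. Ndc80 varied among replicates, with 6.28, 6.96 and 7.02 in Torin1 samples, against 6.13, 6.33 and 6.85 in DMSO samples, and its difference was 0.19 without Torin1 sample 3. Cenpe, a kinesin of the kinetochore, was at 7.10, 7.29 and 6.95 in Torin1 samples and at 6.70, 6.74 and 6.79 in DMSO samples. It did not overlap, and its difference of 0.37 ± 0.10 (SE) was just short of a call (adjusted p = 0.0589). Without Torin1 sample 3 it was called higher at 0.45 (adjusted p = 0.0206). Cenpf, another kinetochore protein, differed by 0.07 ± 0.09.

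None of the 5 genes of anaphase promotion was called in limma, and 0 had an unadjusted p below 0.05 (12.1% and 24.0% of all genes). Ube2c, the ubiquitin-conjugating enzyme of the anaphase-promoting complex, was at 6.93, 6.96 and 6.86 with Torin1, against 7.09, 7.01 and 7.20 with DMSO. Pttg1 (securin), which restrains separase, was at 7.25, 7.43 and 7.47 with Torin1, against 7.10, 7.22 and 7.24 with DMSO. Neither overlapped, and the differences were -0.18 ± 0.08 and 0.19 ± 0.09 (SE; adjusted p = 0.232 and 0.251). Espl1, separase itself, differed by 0.18 ± 0.10. The activators Cdc20 and Fzr1 (CDH1) differed by 0.09 ± 0.12 and by less than 0.01. Without Torin1 sample 3 the Cdc20 difference was 0.20, not called (adjusted p = 0.231).

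Among 8 genes of kinesins, spindle midzone, cytokinesis and centrioles 1 was called higher (Plk4), 0 lower and 7 not called. That share is 12.5%, against 12.1% of all genes. Prc1, which bundles midzone microtubules, differed by 0.21 ± 0.10 (SE; adjusted p = 0.246) without overlap. Kif23, Kif2c and Kif20a, kinesins of the midzone and of microtubule ends, differed by 0.08 ± 0.09, 0.03 ± 0.13 and -0.03 ± 0.12. Nusap1, a microtubule binder, and Anln (anillin), a scaffold of the cleavage furrow, differed by 0.05 ± 0.10 and -0.07 ± 0.14. Kif11, the motor that separates spindle poles, had a difference of -0.18 ± 0.19, which was -0.02 without Torin1 sample 3.

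Among 6 measured genes of condensin and chromosome structure 1 was called lower (Pimreg), 0 higher and 5 not called. This is 16.7% called, against 12.1% of all genes. Ncapd2, a condensin I subunit, was at 6.15, 6.30 and 5.39 in Torin1 samples, against 6.77, 6.44 and 6.58 in DMSO samples. The groups did not overlap, and Torin1 sample 3 was well below the other samples. Its difference was -0.65 ± 0.23 (SE; adjusted p = 0.141), and -0.37 without Torin1 sample 3 (adjusted p = 0.1). Ncaph, another condensin I subunit, differed by 0.07 ± 0.11, or 0.17 without Torin1 sample 3, and the condensin core genes Smc2 and Smc4 differed by -0.12 ± 0.08 and 0.09 ± 0.07.

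Top2a, the topoisomerase that untangles sister chromatids, was at 7.36, 7.33 and 6.62 in Torin1 samples, against 7.32, 7.18 and 7.29 in DMSO samples. Torin1 samples 1 and 2 lay just above all DMSO samples and sample 3 below them. The difference was -0.16 ± 0.19 (SE) over all arrays and 0.08 without Torin1 sample 3, and neither was called (adjusted p = 0.738 and 0.697).

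**Figure D3:**
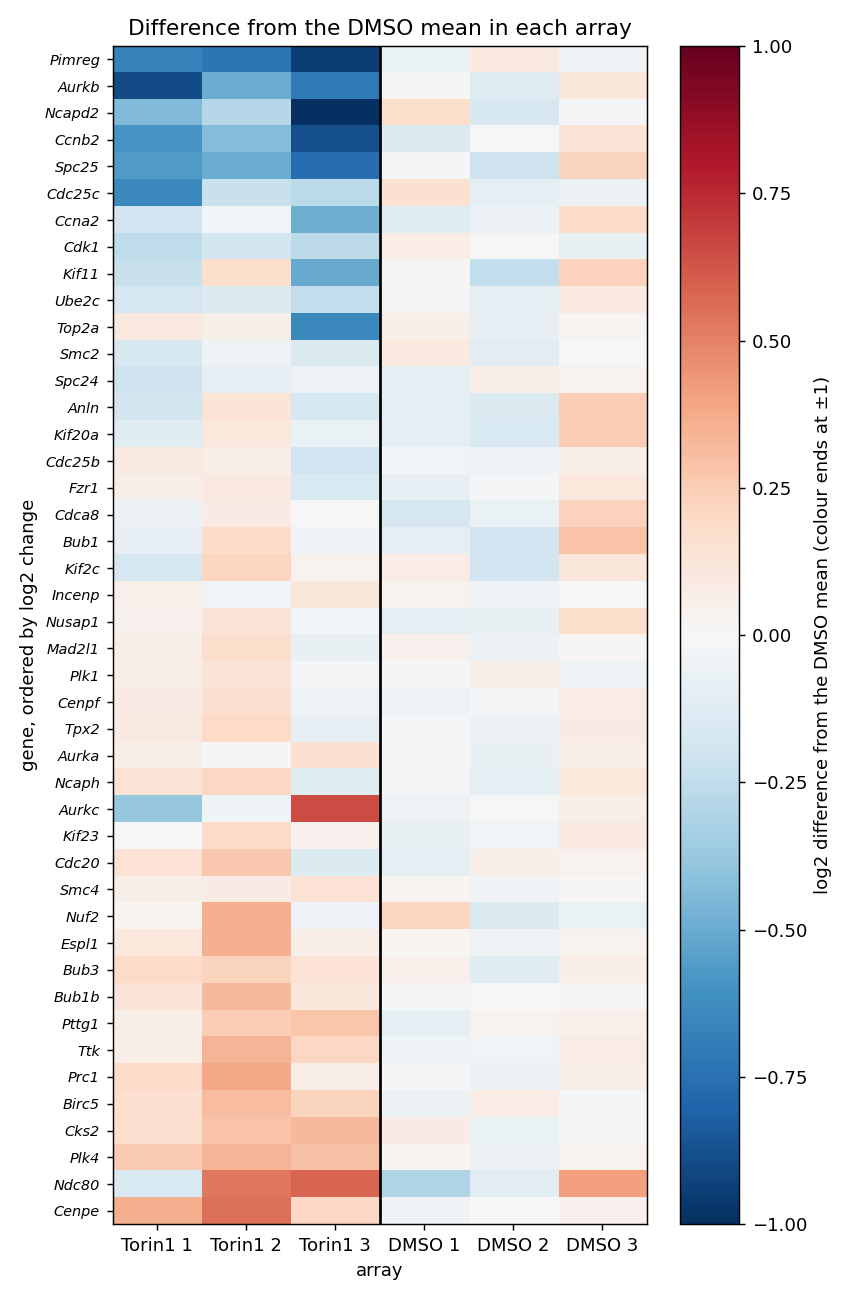
Difference of each array from the DMSO mean (log2, colour, ends at ±1) for the 44 measured members, with Torin1 arrays left and DMSO arrays right, ordered by change. The upper rows (Pimreg, Aurkb, Ncapd2, Ccnb2, Spc25) are blue in all Torin1 arrays, and Torin1 3 alone is dark blue in Top2a and red in Aurkc.

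Torin1 sample 3 was lower than both other Torin1 samples in 24 of 44 members (54.5%), and in 34.7% of all genes. The median difference of Torin1 sample 3 from the mean of Torin1 samples 1 and 2 was -0.10 over the members and 0.01 over all genes. Without sample 3 the differences of Tpx2, Mad2l1, Nuf2 and Cenpf were 0.14, 0.12, 0.19 and 0.13, none of them called. In oocyte markers the value ran the other way: sample 3 was the lowest Torin1 sample in 1 of 28, and the median difference was 0.14. Over the members, the SD of the log2 difference was 0.15 between Torin1 samples 1 and 2, and of 0.30 and 0.25 between these and sample 3. The SD among DMSO samples was 0.14 to 0.18.

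Levels of cell type markers moved beside these results. The summed intensity of 28 oocyte markers was 10793 to 12116 in Torin1 arrays, against 9810 to 10378 in DMSO arrays. Every one of the 28 had a change above 0 (median 0.20), with 2 called higher (Figla and Dppa3), 0 lower and 26 not called. The 2 calls make up 7.14% of these markers, against 12.1% of all genes. Dppa3 was called in 0 of the 6 leave-outs (adjusted p up to 0.118) and Figla in 2 of 6 (up to 0.116). Without Torin1 sample 3 the change of Dppa3 was 0.27 (adjusted p = 0.0678). The summed intensity of 18 cumulus and granulosa markers was 4567 to 5096 in Torin1 arrays, against 7683 to 7876 in DMSO arrays, with 13 called lower and 1 higher. Those calls make up 77.8% of the cumulus and granulosa list. The members lay between these lists, with a median of 0.05, and their summed intensity overlapped between Torin1, at 7195 to 8136, and DMSO, at 7167 to 7740.

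Other cell types had short marker lists, with median levels at the 36.4th to 50.9th percentile of all genes, against the 96.0th for the oocyte list and the 87.1st for the cumulus list. Summed intensities were 50.1 to 133 in Torin1 and 40.1 to 54.7 in DMSO arrays for 3 theca markers, and 65.5 to 71.9 against 84.5 to 92.0 for 5 stroma markers. They were 139 to 259 against 91.3 to 98.4 for 5 endothelium markers, and 61.9 to 66.5 against 51.5 to 57.1 for 5 leukocyte markers. Among these 18 markers Cdh5 of endothelium (2.33 ± 0.37 SE; adjusted p = 0.00835), Star of theca (0.50 ± 0.08) and Cd68 of leukocytes (0.54 ± 0.11) were called higher, and Pdgfra of stroma (-0.82 ± 0.08) was called lower. The share called was 33.3% for theca and 20% each for stroma, endothelium and leukocyte markers, against 12.1% of all genes. The high theca sums of Torin1 samples 1 and 2 went with Hsd3b1, at 6.24, 6.80 and 4.75 in Torin1 samples. In DMSO samples Hsd3b1 was at 5.28, 4.48 and 5.06, and it was not called (adjusted p = 0.297). No marker of the erythroid list was measured, and no measured marker of any list was at 0. The part of the oocyte, cumulus or other markers in the members' changes was not tested.

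A member's direction can depend on what an array is scaled to. With each array centred on the mean log2 level of the oocyte markers, a choice made after the data were seen, the median of all genes moved to -0.20 and that of the members to -0.16. All-gene calls then split into 629 higher and 3220 lower, against 1138 higher and 1540 lower as deposited. On that scale 8 members were called lower and 0 higher: Cdk1, Cdc25c, Spc24 and Ube2c joined Pimreg, Aurkb, Ccnb2 and Spc25, while Plk4, at 0.09, was not called (adjusted p = 0.466).

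**Figure D4:**
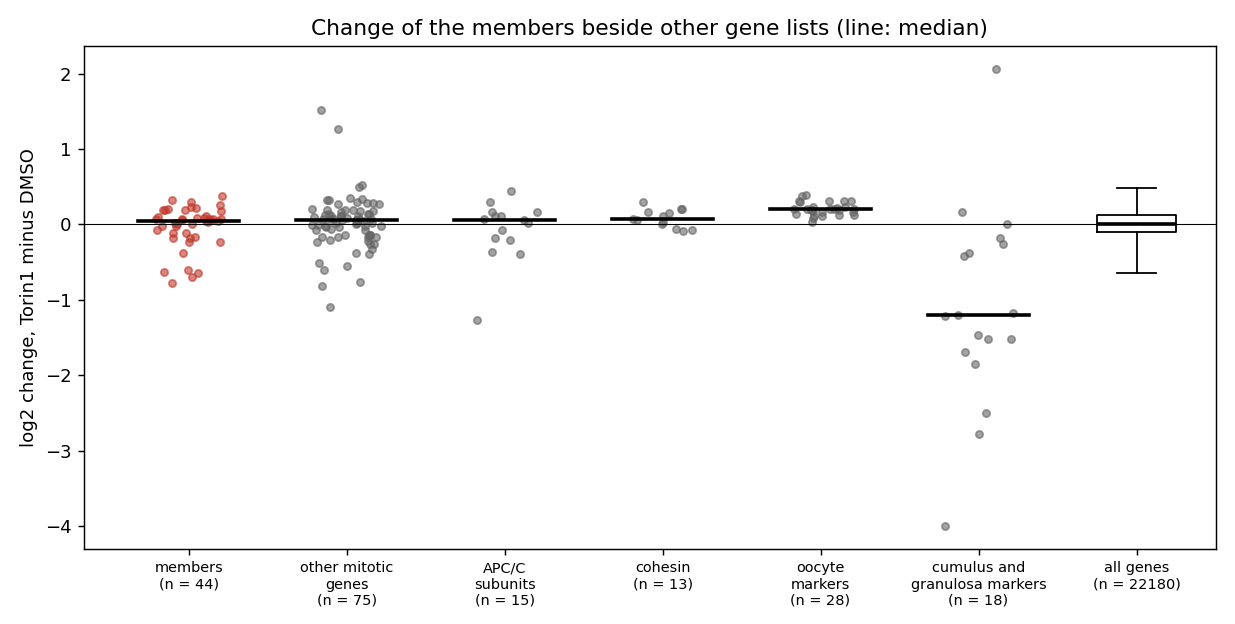
Log2 change, Torin1 minus DMSO, of each gene in 6 lists (points, with the list's median as a line) and of all genes (box: quartiles; whiskers: the range from the 5th to the 95th percentile). The members' median (0.05) lies near that of all genes (0.01), that of the oocyte markers lies at 0.20 and that of the cumulus and granulosa markers at -1.21.

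Of 75 other measured mitotic genes, listed for the same pathway, 1 was called higher, 4 lower and 70 were not called, with a median change of 0.06. The calls make up 6.67% of these genes, against 12.1% of all genes, and 3 of the 75 changed by 1 or more in size. Pbk, a mitotic kinase, was at 5.02, 5.17 and 4.75 in Torin1 samples, against 6.12, 5.86 and 6.24 in DMSO samples, a change of -1.09 ± 0.14 (SE; adjusted p = 0.00373). Depdc1a, Tubg1 (gamma-tubulin, which nucleates microtubules) and Kif15, a spindle kinesin, fell by 0.61 ± 0.10, 0.77 ± 0.14 and 0.81 ± 0.19 (adjusted p = 0.00967, 0.0139 and 0.0326). Tubg1 was not called without DMSO sample 1 (adjusted p = 0.0560). Kif15 was not called without Torin1 sample 1, Torin1 sample 3, DMSO sample 1 or DMSO sample 3 (adjusted p up to 0.116). Without Torin1 sample 3 the change of Kif15 was -0.69 (adjusted p = 0.0557). With the replicate number as a block in the fit Kif15 was not called either (adjusted p = 0.109).

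The gene called higher was Plk3, a stress-responsive polo-like kinase. It was at 5.20 to 5.50 in Torin1 samples and at 3.93 to 4.18 in DMSO samples. Plk3 rose by 1.26 ± 0.11 (SE; adjusted p = 0.000807) and was called in all 6 leave-outs. Plk2, another such kinase, was at 5.26, 5.24 and 8.31 in Torin1 samples, against 5.14, 4.28 and 4.83 in DMSO samples. Its high value came from Torin1 sample 3, and the difference of 1.52 ± 0.79 (SE) was not called (adjusted p = 0.319). Without that sample it was 0.50 (adjusted p = 0.248).

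The anaphase-promoting complex had 3 calls among 15 measured genes, which were subunits and the partner enzyme Ube2s (20%, against 12.1% of all genes). Anapc13 was at 8.32, 8.35 and 8.06 in Torin1 samples, against 9.47 to 9.57 in DMSO samples, and the groups stood well apart. It fell by 1.27 ± 0.10 (SE; adjusted p = 0.000479) and was called in all 6 leave-outs. Anapc5 fell by 0.39 ± 0.07 (adjusted p = 0.0128), though it was not called without DMSO sample 3 (adjusted p = 0.0606). Anapc2, which forms part of the catalytic core, rose by 0.45 ± 0.07 (adjusted p = 0.00819). With arrays centred on the oocyte markers Anapc2 was not called (0.24, adjusted p = 0.130). With the replicate number as a block in the fit neither Anapc2 nor Anapc5 was called (adjusted p = 0.0584 and 0.0788).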

How the data were processed

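The authors deposited intensities, 1 value per probe set and array; the submitters' processing notes name GCOS, Affymetrix Expression Console 1.1 and RMA, while their settings and order and any genome build were not stated there. RMA imposes a common distribution, so changes are relative to other transcripts. The values lie on a linear scale and were taken as log2(intensity + 1). Of 41345 probe sets, 23521 named 1 gene, 1814 several, and 16010 were unnamed here. The brightest probe set of each gene was kept. Torin1 (3 arrays) was compared with DMSO (3 arrays) by limma 3.58.1 in R 4.3.3, with no covariate and no filter, and the fit was tested on simulated data. The number of arrays limits the precision; no background per probe was used. Members and lists were chosen with earlier results of these data known. Values per array are given for called members and, in groups with none, for the 2 with the smallest p, under the rule written for named genes. Cdk1, Cks2, Birc5, Aurkc, Cenpe, Ndc80, Ncapd2, Top2a, Plk2 and Foxm1 were added after their values were seen. Genes most like the called members are not given, since the arrays form 2 clusters and a pooled correlation would follow the groups. Array medians ran from 11.1 to 11.97 intensity units.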

Additional observations from a re-analysis of the deposited data

How the results depend on the processing

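The count of all called genes (2678) was 1565 with the replicate number as a block, 3849 with arrays centred on the oocyte markers (added after the data were seen), and 1518 to 3083 when any 1 array was left out. The 1 member called higher became 0 with an intensity trend and robust prior, with the block and on the oocyte scale, 2 (Plk4 and Cenpe) with array weights, and 0 to 1 in the leave-outs, where the 1 was Cenpe. The 4 members called lower became 2 (Aurkb and Pimreg) with the block, 8 on the oocyte scale and 1 to 4 in the leave-outs, the 1 without DMSO sample 3. The members' median was -0.16 on the oocyte scale and otherwise stayed within the spread between arrays, from -0.0021 without Torin1 sample 2 to 0.10 without DMSO sample 3. Deviations of same-numbered arrays from their group means correlated at -0.21, -0.30 and -0.15, and those of differently numbered arrays at -0.12 to 0.31. Deviations centred within groups of 3 constrain each other, so these values cannot show whether the samples were paired. Counting Torin1 samples 2 and 3 as 1 sample, because their descriptions share a short name, called Cenpe in place of Plk4 and added Ncapd2 to the members called lower. A pseudocount of 16 added Cdk1 to them. The cause of these shifts was not tested. Of 44 members, 34 were on the same side of the threshold in every setting that tested them.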

Other observations

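Of 23 measured regulators of mitotic transcription 1 was called higher, 1 lower and 21 were not called, with a median change of 0.03. The calls make up 8.70% of the list, against 12.1% of all genes. The median size of the change was 0.22, against 0.11 over all genes, and 9 genes (39.1%) had an unadjusted p below 0.05, against 24.0% of all genes. E2f6, a repressor of the E2F family, was at 4.25, 4.34 and 4.26 in Torin1 samples, against 6.43, 5.27 and 5.75 in DMSO samples. It fell by 1.53 ± 0.26 (SE; adjusted p = 0.0108) and was called in all 6 leave-outs, with Torin1 values near the median gene's level of 4.17. Lin54, the subunit of the DREAM and MMB complexes that contacts the cell cycle homology region, averaged 7.07 ± 0.10 in Torin1 samples and 6.59 ± 0.04 in DMSO samples (SD, n = 3 each). It rose by 0.48 ± 0.08 (SE; adjusted p = 0.00975). Lin54 was not called with arrays centred on the oocyte markers (adjusted p = 0.0991) or with the replicate number as a block (adjusted p = 0.0554). Foxm1 and Mybl2, activators of mitotic genes, differed by 0.07 ± 0.08 and 0.13 ± 0.08 and were not called. Foxm1 was at 6.93, 6.95 and 6.76 in Torin1 samples, against 6.78, 6.88 and 6.77 in DMSO samples. For this gene Torin1 samples 1 and 2 lay above all DMSO samples and sample 3 just below them.

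Cohesin, the ring that holds sister chromatids together, had no called gene in limma among 13 measured (12.1% of all genes were called). An unadjusted p below 0.05 was found in 1 cohesin gene (7.69%, against 24.0% of all genes). That gene, Smc1b, the meiotic form of a core subunit, was at 3.98 to 4.03 in Torin1 samples and at 3.68 to 3.88 in DMSO samples (change 0.20 ± 0.08 SE; adjusted p = 0.196). Its levels lay below the median gene. Mau2, a subunit of the cohesin loader, differed by 0.17 ± 0.07 (adjusted p = 0.225).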
